A study of Mus musculus with 2 samples.

Results

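The Hoxa, Hoxb, Hoxc and Hoxd clusters hold the Hox genes of the mouse, and 38 of these genes were read here from digital gene expression (DGE) tags of 2 cell lines. The members were chosen by name, as the genes of the 4 clusters, but with earlier results of these data known. They are 38 of 55450 genes in the transcript reference, and 28 of the 38 had a listed tag, against 14450 genes in all. GC-1spg was made from type B spermatogonia of 10 day mice transformed with pSV3-neo. GC-2spd (ts) was made from spermatocytes of 6 week mice transformed with the SV40 large T antigen. Both are single lines transformed with SV40 sequence and were grown in DMEM with FBS. Per the labels, GC-1spg stands between type B spermatogonia and primary spermatocytes, while GC-2spd is arrested before meiosis and no longer differentiates. The study compared them to follow gene expression between type B spermatogonia and primary spermatocytes. Each line gave 1 library, so the differences lack a replicate check, and a test sets 1 library against another and says nothing of the conditions.

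Hox genes encode homeodomain transcription factors that give cells their position along the body axis. Their order along a chromosome follows the order of their expression along the body, so that genes of low number act towards the head and genes of high number towards the tail, the limb ends and the urogenital tract. Genes of the same number in different clusters are paralogues with related binding preferences, and Pbx and Meis homeodomain proteins bind DNA together with them. Fibroblasts and other mesenchymal cells in culture are known to keep a Hox pattern of the body site they came from. Polycomb complexes hold silent Hox genes down, and Trithorax complexes keep active ones on.

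A DGE tag is the CATG at which NlaIII cuts the cDNA plus the 17 bases that follow it, cut from the 3′ side of a polyadenylated transcript. A transcript gives 1 tag, so the tag level does not grow with gene length, although it depends on which CATG sites a transcript has. Levels are given as transcripts per 1000000 clean tags (TPM). A single copy equals 0.197 TPM for GC-1spg and 0.212 TPM for GC-2spd. The libraries held 5072149 and 4726808 clean tags. A gene is called listed when at least 1 sense tag that matches no other gene was in a library, and the smallest listed copy number is 2.

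The tags that carry most of each member's copies are shown first, since the counts of these sequences are the measurement. They are given for members with at least 20 tags over both libraries, with CATG in capitals and with the position in GRCm38, the strand and the annotated part of the transcript. The posterior genes with the clearest differences were read from these tags.
Hoxb9 (chr11:96276189-96276209, plus strand, 3′ UTR): CATGcatacgcttctggcaaa
Hoxb13 (chr11:96196550-96196570, plus strand, 3′ UTR): CATGagttgagctgattgtga
Hoxc10 (chr15:102971837-102971857, plus strand, 3′ UTR): CATGtagcttccttaatggag
Hoxd9 (chr2:74699781-74699801, plus strand, 3′ UTR): CATGtttctgaaaagtgctgt
Hoxd10 (chr2:74695073-74695093, plus strand, 3′ UTR): CATGtgtaatgcaataaactc
Hoxd11 (chr2:74684563-74684583, plus strand, exon of a noncoding transcript of the gene): CATGagtcactgtctttttgt

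The remaining posterior genes above that minimum were read from the following tags, which include the most abundant tags of the Hoxa cluster.
Hoxa9 (chr6:52223245-52223265, minus strand, 3′ UTR): CATGaaactgctcttgggcta
Hoxa10 (chr6:52231430-52231450, minus strand, 3′ UTR): CATGcataaaagggtcaaacc
Hoxc9 (chr15:102984760-102984780, plus strand, 3′ UTR): CATGtacagagcagtgttctt
Hoxc13 (chr15:102927831-102927851, plus strand, 3′ UTR): CATGgacacaggatctggggg

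The anterior and middle genes were read from the following tags, of which that of Hoxc8 differed most between the libraries.
Hoxc8 (chr15:102993711-102993731, plus strand, 3′ UTR): CATGaaaataatatactgata
Hoxb8 (chr11:96285132-96285152, plus strand, 3′ UTR): CATGcgcgctgtgagcattgt
Hoxb7 (chr11:96289694-96289714, plus strand, 3′ UTR): CATGaaactcaaataaagggg
Hoxb6 (chr11:96301266-96301286, plus strand, 3′ UTR): CATGtcccccgtgcacggttc
Hoxa5 (chr6:52202166-52202186, minus strand, 3′ UTR): CATGtacgtggaagtgttcct
Hoxb5 (chr11:96305487-96305507, plus strand, 3′ UTR): CATGtttaatgtgacttcccc
Hoxc5 (chr15:103016178-103016198, plus strand, 3′ UTR): CATGactttctcaccttcctg
Hoxb4 (chr11:96320352-96320372, plus strand, 3′ UTR): CATGggggggtggggggaaca
Hoxc4 (chr15:103036222-103036242, plus strand, 3′ UTR): CATGgtacctgctgggttttt
Hoxa3 (chr6:52170024-52170044, minus strand, coding sequence): CATGggccggggcctggggag
Hoxa2 (chr6:52162530-52162550, minus strand, 3′ UTR): CATGcgtatttttggtagaat

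Some Hox tags begin inside the homeodomain, the part of the protein that binds DNA and is nearly the same in many members. The run CATGAAGTGGAA was taken from the main tags of Hoxc6 and Hoxa7, as the bases they share from their start. Searched on the sense strand, it was in the coding sequence of 7 of the 38 members. It was anywhere in a transcript of 51 of all 55450 reference genes, or 0.0920%. Since the run came from members, its presence in them was partly given in advance, and the regions counted differ. It also led a rare tag of Hoxb6. These tags are printed here with the shared run in capitals, and the bases after it tell the genes apart.
Hoxc6 (chr15:103010912-103010932, plus strand, coding sequence): CATGAAGTGGAAaaaagaatc
Hoxa7 (chr6:52215844-52215864, minus strand, coding sequence or 3′ UTR by isoform): CATGAAGTGGAAgaaagagca
Hoxb6 (chr11:96300847-96300867, plus strand, coding sequence): CATGAAGTGGAAaaaggagag

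Antisense tags that begin at such sites run over bases shared by several members, and were not given to a single gene. The following tag matched Hoxb3, Hoxb5 and Hoxd3 on the antisense strand and also transcripts that run against Hoxb3 and Hoxb5, and its copies numbered 15 for GC-1spg and 5 for GC-2spd.
Hoxb3, Hoxb5 and Hoxd3 antisense (chr11:96345809-96345829 in Hoxb3, minus strand, coding sequence): CATGcgacggttctggaacca

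Both lines transcribed Hox genes of all 4 clusters. Of the 38 members, 26 were listed in GC-1spg and 27 in GC-2spd. The summed sense tags of the members were 1171 copies or 231 TPM in GC-1spg, with a 95% Poisson interval of 218 to 244 TPM. In GC-2spd they were 1450 copies or 307 TPM, with an interval of 291 to 323 TPM. The sum was thus higher in GC-2spd, by 0.41 on the log2 scale with an exact 95% interval of 0.30 to 0.52, and by 0.24 after TMM scaling, a scaling that shifts every log2 ratio by −0.17. All intervals here cover counting error only, and in bulk RNA fewer cells with a transcript and less of it per cell cannot be told apart.

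A gene was called changed when it differed at least 2-fold and passed the Audic-Claverie test, a two-sided comparison of the counts of 2 libraries, with a false discovery rate (FDR, Benjamini-Hochberg) not above 0.001 over all 14450 genes. By this rule 7 of the 28 listed Hox genes were higher in GC-2spd and 1 was lower. These 8 are 28.6% of the listed members, against 19.5% of all genes tested, of which 11.7% were higher and 7.84% lower. The median log2 ratio with 0.5 tags added to both counts was 0.14 over the listed members and 0.13 over all genes tested. By class, 0 of 4 listed anterior genes (groups 1 to 4) and 1 of 10 listed middle genes (groups 5 to 8) were called. Of 14 listed posterior genes (groups 9 to 13), 7 were called. A gene with few copies is called less easily, so the classes were not equally open to a call. Anterior genes summed to 79 and 66 copies, middle genes to 394 and 525, and posterior genes to 698 and 859. The test takes no account of variation between cultures. With an assumed biological coefficient of variation of 0.2 in edgeR's exact test, 3 members were called higher (Hoxb9, Hoxc8 and Hoxd10) and 0 lower, against 6.92% of all genes, and with 0.4 none was called, against 1.69%.

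**Figure D1:**
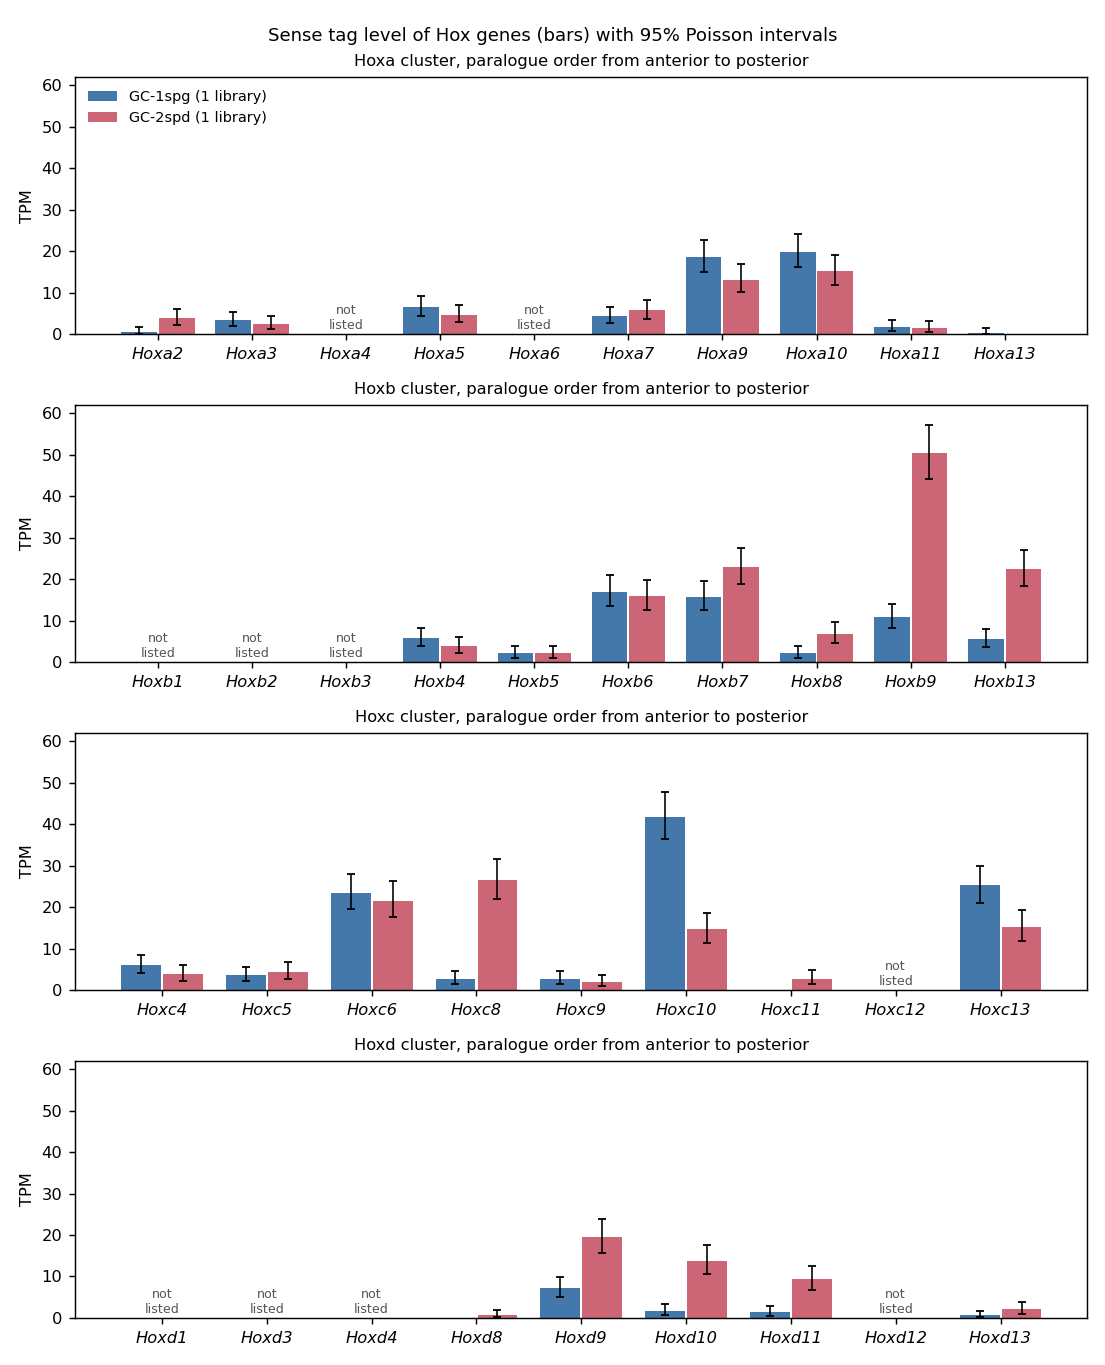
Sense tag level in TPM (y axis) of the 38 Hox genes in cluster order (x axis), with bars for the single library of GC-1spg (blue) and of GC-2spd (red) and 95% Poisson intervals. The highest bars are Hoxc10 in GC-1spg at 41.8 TPM and Hoxb9 in GC-2spd at 50.4 TPM, and 10 genes are not listed in either library.

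The gene with the highest level differed between the lines. In GC-1spg it was Hoxc10, a gene of the lumbar region and hindlimb, at 41.8 TPM (36.4 to 47.8). Its interval lay above those of the next genes, Hoxc13 at 25.2 TPM and Hoxc6 at 23.5 TPM, whose own intervals overlapped. In GC-2spd it was Hoxb9, a gene of the thoracic ribs, at 50.4 TPM (44.2 to 57.2). Its interval was likewise clear of the genes that followed, which were Hoxc8, Hoxb7, Hoxb13 and Hoxc6 at 21.6 to 26.4 TPM with overlapping intervals. The 5 highest genes gave 55.8% of the Hox tags in GC-1spg, where they were Hoxc10, Hoxc13, Hoxc6, Hoxa10 and Hoxa9. In GC-2spd the 5 highest gave 46.8%, and Hoxc6 stood in both sets.

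Most listed Hox genes had fewer copies than the typical listed gene. In GC-1spg 19 of the 26 listed members, and in GC-2spd 16 of the 27, stood above less than 50% of the genes listed there. The median member stood above 35.5% in GC-1spg and 37.9% in GC-2spd. Hoxc10 in GC-1spg stood above 78.1% of the 13066 genes listed there, and Hoxb9 in GC-2spd stood above 78.8% of the 12757 listed there. At the lower end, Hoxa13 in GC-1spg, at 2 copies, stood above none, and Hoxa2 and Hoxd13 there, each at 3 copies, stood above 7.30%.

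In the Hoxb cluster the posterior genes rose. Hoxb9 rose from 55 to 238 copies, or 10.8 and 50.4 TPM. The log2 ratio was 2.22 (95% interval 1.79 to 2.67) at an FDR of 6.45e-30. Hoxb13, the tail-most gene of the cluster, which acts in the tail bud and the prostate, had 28 and 106 copies, or 5.52 and 22.4 TPM. Its log2 ratio was 2.02 (1.41 to 2.68) at an FDR of 3.09e-12. Together these posterior Hoxb genes went from 83 to 344 copies, a log2 ratio of 2.15 (1.80 to 2.52).

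The middle Hoxb genes moved less. Hoxb8, which acts in the thoracic region and in haematopoietic cells, had 11 and 32 copies, and its log2 ratio of 1.64 (0.62 to 2.78) missed the FDR threshold at 0.0024. Hoxb7, a gene of the trunk, had 80 and 108 copies (log2 ratio 0.53, 0.10 to 0.97). Hoxb6, another trunk gene, had 86 and 75 copies with an interval of −0.56 to 0.37 around a log2 ratio of −0.10. Of these middle genes none was called, and the ratios ran downwards in order from Hoxb8 to Hoxb6. Hoxb5, known from the enteric nervous system, had 11 and 10 copies, and Hoxb4, known from blood stem cells, had 29 and 18. For both, the interval of the ratio included no change. Hoxb1, Hoxb2 and Hoxb3 had no unshared sense tag in either library. Tags that Hoxb2 and Hoxb3 share with the antisense gene Hoxb3os had 16 and 16 copies at Hoxb2 and 15 and 9 at Hoxb3. The Hoxb sum was 300 and 587 copies, a log2 ratio of 1.07 (0.87 to 1.28).

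In the Hoxc cluster nearby genes went in opposite directions. Hoxc8, which acts in the thoracic skeleton and in motor neurons of the forelimb, rose from 14 to 125 copies, or from 2.76 to 26.4 TPM. This was the largest log2 ratio among members listed in both libraries, 3.26 (2.46 to 4.17) at an FDR of 4.98e-24. Hoxc10 had 212 and 69 copies, or 41.8 and 14.6 TPM, and was the only member called lower, at a log2 ratio of −1.52 (−1.93 to −1.12) and an FDR of 3.81e-15. Between them on the chromosome, Hoxc9 had 14 and 9 copies, and its interval of −1.92 to 0.77 did not tell a rise from a fall.

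Among Hoxc11, Hoxc12 and Hoxc13, at the posterior end of the cluster, only Hoxc11 was called. Hoxc11, a gene of the sacral region and hindlimb, was not listed in GC-1spg and had 13 copies in GC-2spd, with an FDR of 0.00049. Its GC-2spd level was 2.75 TPM (1.46 to 4.70). That level is 2.22-fold above a limit for GC-1spg, the 95% Poisson upper limit of 6.30 copies that its 2 tags would allow. The counting error of the 13 copies is not part of that ratio. Hoxc13, needed for hair and nails, had 128 and 72 copies. Its log2 ratio of −0.73 (−1.17 to −0.30) lay below 0 but was neither 2-fold nor under the FDR threshold (FDR 0.0015). Hoxc12 has no CATG in its reference transcript and cannot give a tag.

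Towards the anterior side none of the Hoxc genes was called. Hoxc6, of the anterior thorax, had 119 and 102 copies with a log2 ratio of −0.12 (−0.52 to 0.27). Hoxc5 had 18 and 21 copies with a log2 ratio of 0.32 (−0.65 to 1.32). Hoxc4, also a cervical gene, had 30 and 18 copies with a log2 ratio of −0.64 (−1.57 to 0.25). The intervals of all 3 included no change, and those of Hoxc5 and Hoxc4 also allowed a change of more than 2-fold. The Hoxc sum was 535 and 429 copies, a log2 ratio of −0.22 (−0.40 to −0.03). Its posterior genes together went from 354 to 163 copies, a log2 ratio of −1.02 (−1.29 to −0.75).

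The Hoxd cluster was low in GC-1spg and rose through 3 adjacent genes. Hoxd9, which acts in the lumbosacral region and the limb, had 36 and 92 copies, equal to 7.10 and 19.5 TPM, with a log2 ratio of 1.46 (0.88 to 2.05) at an FDR of 4.77e-07. Hoxd10, a gene of lumbar motor neurons and limb, had 9 and 65 copies, a log2 ratio of 2.95 (1.94 to 4.15) at an FDR of 1.30e-11. Hoxd11, which patterns the forearm and the kidney together with Hoxa11, had 7 and 44 copies, a log2 ratio of 2.75 (1.59 to 4.15) at an FDR of 1.62e-07. All of the Hoxd11 tags lay in an exon of a noncoding transcript of that gene, and its coding transcript gave none.

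Each of the other Hoxd genes had few copies or none. Hoxd13, of the digits and the genital tubercle, had 3 and 10 copies with an interval of −0.12 to 4.34. Hoxd8 had 0 and 3 copies. Hoxd1, Hoxd3, Hoxd4 and Hoxd12 were not listed, although a tag shared with the overlapping gene Gm28230 had 3 and 5 copies at Hoxd3 and another had 2 and 9 at Hoxd4. The Hoxd sum went from 55 to 214 copies, or from 10.8 to 45.3 TPM, with a log2 ratio of 2.06 (1.63 to 2.52), and its share of all Hox tags went from 4.70% to 14.8%.

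The Hoxa cluster held no called gene among its 8 listed members. Hoxa9, needed in blood progenitors, had 94 and 62 copies (log2 ratio −0.50, −0.99 to −0.02). Hoxa10, which acts in the lumbar spine, the uterus and the descent of the testis, had 101 and 72 copies (log2 ratio −0.39, −0.84 to 0.06). Both ratios were under 2-fold, and the interval of Hoxa10 included 0. Hoxa11, of the kidney and forearm, had 9 and 7 copies, and Hoxa13, of the digits and urogenital tract, had 2 and 0. Hoxa5, of the lung, had 33 and 22 copies, and Hoxa7, a trunk gene, had 22 and 27. For Hoxa11, Hoxa5 and Hoxa7 the interval of the ratio included no change. With the tags that Hoxa7 shares with the antisense gene Hoxaas3 added, it had 59 and 94 copies, a log2 ratio of 0.77 (0.29 to 1.27) whose interval lay above 0.

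Hoxa3, which forms the thymus, had 17 and 12 copies. Hoxa2, which patterns the second pharyngeal arch, had 3 and 18, and its log2 ratio of 2.69 (0.91 to 5.09) missed the FDR threshold at 0.0024. Hoxa4 and Hoxa6 were not listed, although a tag of Hoxa4 that also lies antisense in Gm29430 had 30 and 53 copies. The Hoxa sum was 281 and 220 copies, a log2 ratio of −0.25 with an interval of −0.51 to 0.01, and with shared tags added it was 0.07 (−0.15 to 0.29), so that its direction was not settled.

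**Figure D2:**
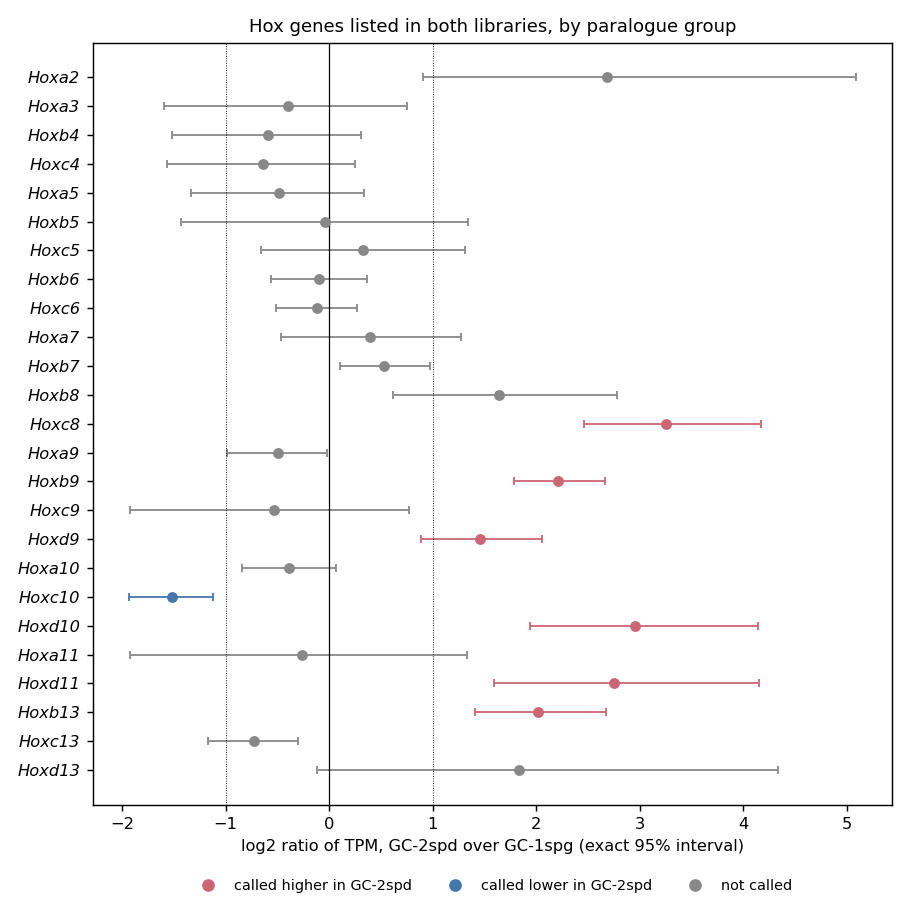
Log2 ratio of TPM, GC-2spd over GC-1spg (x axis), with exact 95% intervals for the Hox genes listed in both libraries, ordered by paralogue group (y axis), 1 library per line. The called genes lie from Hoxc8 downwards in the list, with Hoxc10 alone on the lower side at −1.52, and dotted lines mark a 2-fold change.

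In group 10 called paralogues went apart, while in groups 9 and 13 only the higher members were called. In group 10 Hoxc10 fell by 1.52 on the log2 scale, Hoxd10 rose by 2.95, and Hoxa10 was at −0.39 with an interval that included 0. The group as a whole went from 322 to 206 copies, a log2 ratio of −0.54 (−0.80 to −0.29). In group 9 Hoxb9 and Hoxd9 rose while Hoxa9 and Hoxc9 were at −0.50 and −0.54 and were not called. The interval of Hoxc9 included 0, and Hoxa9 was at 0.12 with only the 3′-most site counted. The sum of group 9 went from 199 to 401 copies, a log2 ratio of 1.11 (0.86 to 1.37).

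Group 8 had the largest ratio, from 25 to 160 copies with a log2 ratio of 2.78 (2.17 to 3.45), and Hoxc8 supplied most of it. Its other members were also higher in GC-2spd by count, with Hoxb8 at 11 and 32 copies and Hoxd8 at 0 and 3, but were not called. Group 7 went from 102 to 135 copies, a log2 ratio of 0.51 (0.12 to 0.89), with Hoxb7 at 0.53 and Hoxa7 at 0.40. The listed pair of group 6, Hoxb6 and Hoxc6, had ratios of −0.10 and −0.12, and that of group 4, Hoxb4 and Hoxc4, had ratios of −0.59 and −0.64. Group 11 went from 16 to 64 copies, a log2 ratio of 2.10 (1.29 to 2.99), through Hoxd11 and Hoxc11. In group 13 Hoxb13 rose and Hoxc13 was lower, and the sum of 161 and 188 copies had a log2 ratio of 0.33 (0.01 to 0.64). Group 2, with Hoxa2 as its only listed gene, had 3 and 18 copies. Its log2 ratio of 2.69 (0.91 to 5.09) had an interval that overlapped that of group 8, and was 0.94 with sense matches preferred. Groups 3 to 6 each had an interval that included 0, and groups 1 and 12 had no listed gene.

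The largest part of the Hox tags came from posterior genes in both lines. Posterior genes gave 59.6% of the Hox tags of GC-1spg and 59.2% of those of GC-2spd. Middle genes gave 33.6% and 36.2%, and anterior genes 6.75% and 4.55%. The classes differ in size, with 14 posterior, 10 middle and 4 anterior genes among the 28 listed, so the shares are not levels per gene. The anterior shares depended on tags shared with antisense genes. With these given to the Hox gene, which adds Hoxa4, Hoxb2 and Hoxb3, anterior genes had 140 and 146 copies in place of 79 and 66, or 11.0% and 9.14% of the Hox tags. Posterior genes then gave 55.0% and 53.8%. Which clusters supplied the posterior tags differed. Without shared tags, the posterior Hoxc genes went from 30.2% to 11.2% of all Hox tags and the posterior Hoxb genes from 7.09% to 23.7%.

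**Figure D3:**
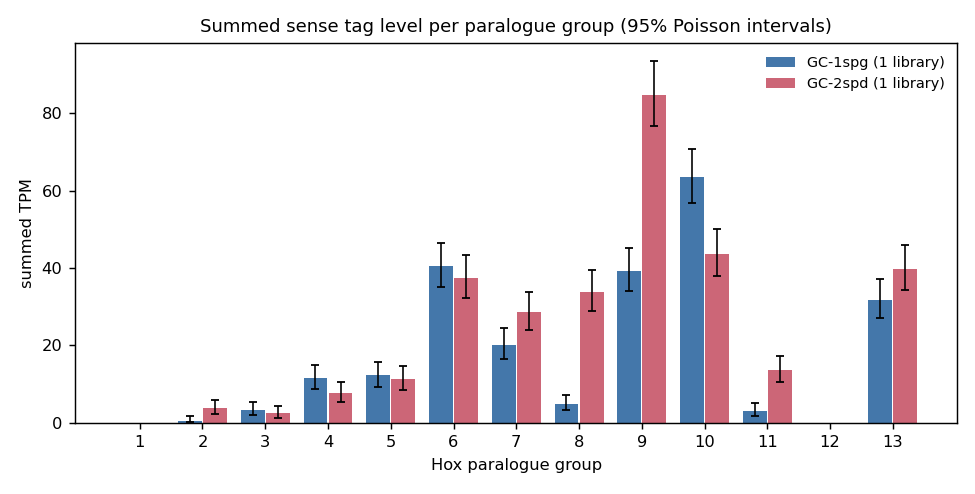
Summed sense tag level in TPM (y axis) for each Hox paralogue group (x axis) in the single library of GC-1spg (blue) and of GC-2spd (red), with 95% Poisson intervals. Group 10 is the highest in GC-1spg at 63.5 TPM and group 9 in GC-2spd at 84.8 TPM.

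Most Hox tags came from the CATG nearest the 3′ end of a transcript, with 85.1% of the GC-1spg copies and 77.0% of the GC-2spd copies. For some members the position bears on the count. Hoxb13 was read from the third site from the end, 877 bases from it, and with only the 3′-most site counted group 13 turned to a log2 ratio of −0.62. Hoxd11 likewise had no tag at the 3′-most site of its transcripts, and with that site alone Hoxb13, Hoxd11 and Hoxc11 were not called and Hoxa7 was called higher. Hoxd10 had 2 tags, with 7 and 35 copies at the last site and with 2 and 30 copies at the sixth. Hoxd9 had 25 and 57 copies at the last site and 11 and 35 at the site before it, in the coding sequence. In both genes the 2 tags had more copies in GC-2spd. A Hoxa9 tag at the site before the last had 11 copies in GC-1spg and was not listed in GC-2spd, while the last site had 66 and 49.

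Tags that match a Hox gene on the antisense strand were counted apart. Over the members they numbered 321 copies for GC-1spg and 281 for GC-2spd. That was 27.4 and 19.4 per 100 sense copies, against 13.9 and 12.2 per 100 over all genes. Of these copies 100 and 60 were at Hoxc9, nearly all from tags that end in a run of A and whose place in the genome is uncertain. Without Hoxc9 the antisense copies were 221 in both libraries, or 19.1 and 15.3 per 100 sense copies. CATG reads the same on both strands, so a sense and an antisense tag can start at 1 site and run apart. Of the 44 antisense tags of the members, 25 started at the CATG of a listed sense tag of the same gene, and these held 177 of the 321 copies in GC-1spg and 167 of the 281 in GC-2spd. The tags below show this for the called genes Hoxc10, Hoxd9 and Hoxc11.
Hoxc10 antisense (chr15:102971820-102971840, minus strand, 3′ UTR): CATGcaaaagatacaacatac
Hoxd9 antisense (chr2:74699764-74699784, minus strand, 3′ UTR): CATGagggacatttacataga
Hoxc11 antisense (chr15:102957585-102957605, minus strand, 3′ UTR): CATGgatagagatgggtgatt

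Antisense copies moved in the direction of the sense copies at the called genes that had several of them. At Hoxc10 they went from 67 to 6 while sense copies went from 212 to 69, so that the antisense count per 100 sense copies was 31.6 in GC-1spg and 8.70 in GC-2spd. At Hoxd9 they went from 6 to 41, or from 16.7 to 44.6 per 100 sense copies, at Hoxc8 from 5 to 22, and at Hoxc11 from 0 to 8. At Hoxa10, where sense copies were 101 and 72, antisense copies were 63 and 55, and their interval on the log2 scale was −0.64 to 0.45.

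**Figure D4:**
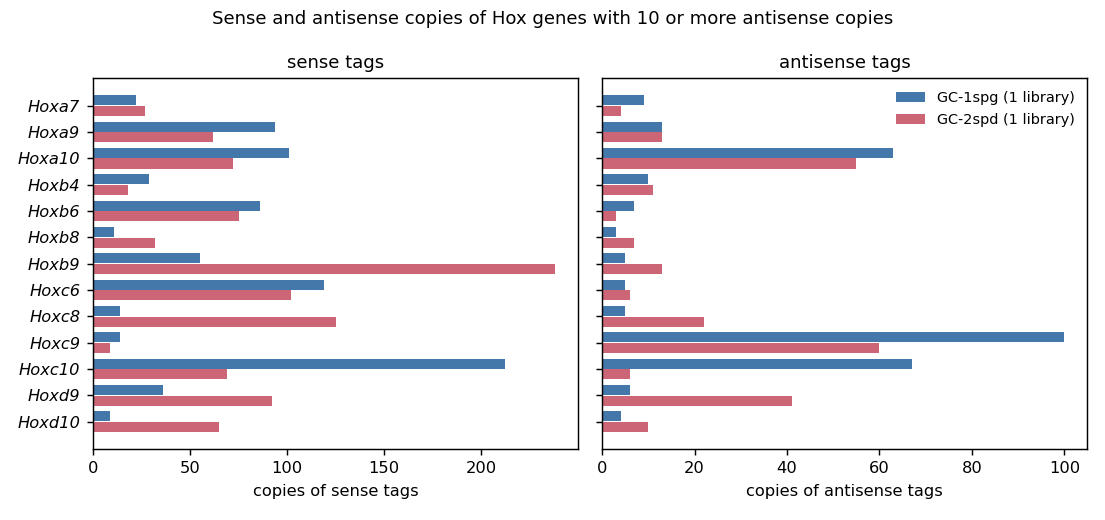
Copies of sense tags (left, x axis) and antisense tags (right, x axis, another scale) for the Hox genes with 10 or more antisense copies over both libraries (y axis), in GC-1spg (blue) and GC-2spd (red), 1 library per line. Hoxc10 is higher in GC-1spg and Hoxd9 and Hoxc8 are higher in GC-2spd on both strands, and Hoxc9 has more antisense than sense copies.

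Other transcripts lie within the clusters. Gm53, a long noncoding RNA gene between Hoxb13 and Hoxb9 (chr11:96251105-96264868, plus strand), was not listed in GC-1spg and had 42 copies or 8.89 TPM in GC-2spd. It was called higher at an FDR of 8.01e-13, and both of its Hox neighbours were also called higher. Its level was 4.92-fold above the upper limit for GC-1spg, without the counting error of the 42 copies. Its copies came from 4 tags, none of which was listed in GC-1spg, and the tag with the most copies, 24, is shown.
Gm53 (chr11:96262940-96262960, plus strand, exon of the noncoding transcript): CATGtcattttgggaaataaa

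None of the other transcripts with at least 10 tags was called. Gm15050, antisense within the Hoxa cluster, had 14 and 17 copies, 5730596B20Rik had 10 and 5, and Hoxb5os had 12 and 5. Hotair, a long noncoding RNA of the Hoxc cluster known for its link to Polycomb, had 6 and 5 copies (log2 ratio −0.16, −2.21 to 1.81).

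Among the partners and regulators of Hox genes, a list of 39 genes, 36 were listed, 5 were higher and 1 lower in GC-2spd, or 16.7% called against the 19.5% over all genes. Of the homeodomain cofactors, Pknox2 had 5 and 90 copies, a log2 ratio of 4.27, and Pbx3 had 41 and 89, a log2 ratio of 1.22 (0.67 to 1.79). Pbx2 went the other way with 188 and 94 copies, a log2 ratio of −0.90 (−1.27 to −0.53), which was under 2-fold and was called lower with TMM scaling. Meis1 had 52 and 31 copies, and Meis2 had 120 and 90, with intervals that included 0.

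Subunits of the Polycomb repressive complexes that bind histone marks or DNA went both ways. Among the chromobox proteins, Cbx7 had 7 and 45 copies (log2 ratio 2.79), and Cbx8 had 66 and 25 (−1.30), and both were called, although with only the 3′-most site counted Cbx8 was at 0.69 and was not called, and with exact matches only Cbx7 was at 1.52 and was not called. The core subunits Rnf2, with 91 and 174 copies, and Bmi1, with 53 and 102, were just over 2-fold higher, and both fell under 2-fold with TMM scaling. Ezh2, the H3K27 methyltransferase, had 237 and 420 copies at a log2 ratio of 0.93 and so was not called. None of the 9 Trithorax group and H3K27 demethylase genes was called. The Cdx genes, which switch on trunk Hox genes in the embryo, were not listed in either library.

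**Figure D5:**
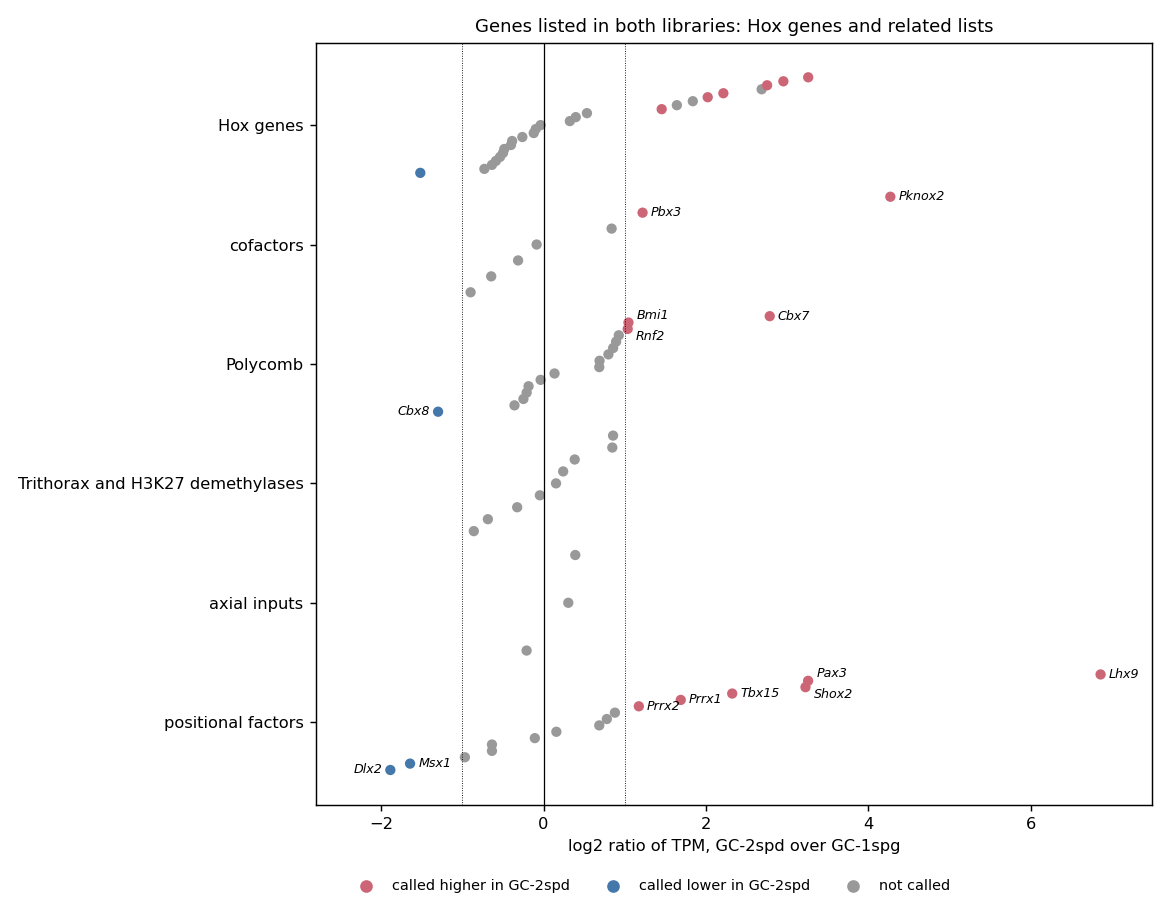
Log2 ratio of TPM, GC-2spd over GC-1spg (x axis), for genes listed in both libraries among the Hox genes and related lists (y axis, points spread vertically for legibility), 1 library per line. Named points in the related lists are the called genes, from Dlx2 at −1.89 to Lhx9 at 6.86, and dotted lines mark a 2-fold change.

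Other transcription factors with regional expression, not all of them mesenchymal, were compared as a second list, of which 23 of 39 were listed. In GC-2spd 7 were higher and 4 lower, or 47.8% of those listed, against the 19.5% over all genes (11.7% higher and 7.84% lower). The list was chosen with earlier results of these data known, so its share of calls is not that of a blind choice. Lhx9, a factor of the early gonad and the limb, had 3 and 325 copies (log2 ratio 6.86, 5.30 to 9.15). Hand2, of the heart, limb and branchial arches, had 478 copies in GC-1spg and was not listed in GC-2spd. Its GC-1spg level was 42.4-fold above the upper limit for GC-2spd, without the counting error of the 478 copies. These 2 factors thus had opposite patterns.

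The limb and skin mesenchyme factors Prrx1 (145 and 436 copies), Prrx2 (78 and 164), Shox2 (18 and 157) and Tbx15 (30 and 140) were called higher, as was Pax3 (25 and 223), a factor of the dorsal neural tube and muscle precursors. Msx2 was not listed in GC-1spg and had 39 copies in GC-2spd, and was also called higher, though not with only the 3′-most site counted. Dlx2 had 123 and 31 copies, Msx1 had 57 and 17, and Foxd1 had 70 and was not listed in GC-2spd, and all were called lower. The forelimb and hindlimb factors Tbx5, Tbx4 and Pitx1 were not listed in either library, and Twist1 had 351 and 365 copies and was not called.

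The labelled cell types were checked against markers. None of 13 germ cell markers, among them Ddx4, Dazl, Sycp3, Stra8 and Kit, was listed in either library. The lack of Ddx4 and Dazl goes against the germ cell label of both lines. The 13 markers cover several germ cell stages, so not all of them bear on the labelled stages. With tags shared with an antisense gene given to the marker, Gfra1 had 3 and 11 copies and Sycp3 had 2 and 0, and the other markers still had none. Of 8 fibroblast markers 7 were listed, and these too went both ways. Col1a1 was called lower with 10465 and 2425 copies. Vim (984 and 2897), Col3a1 (50 and 120) and Pdgfrb (0 and 84) were called higher. Fn1 had 2351 and 1211 copies, Col1a2 had 605 and 907 and Pdgfra had 85 and 74, and none of these was called. Thy1 was not listed. Of 5 Sertoli cell markers 4 were listed, and they went both ways. Wt1 had 620 copies in GC-1spg and was not listed in GC-2spd, Gata4 was called higher with 29 and 138 copies, Sox9 had 29 and 46, and Amh had 5 and 0. Of 4 peritubular myoid markers Acta2 was called higher with 50 and 555 copies, while Des had 11 and 4, Cnn1 had 5 and 15, and Myh11 had 0 and 2. Of 4 Leydig cell markers 2 were listed, with 5 copies or fewer per library. These marker levels differed between the lines together with the Hox genes, and their part in the Hox differences was not tested. The lines also differ in the age and the cell of origin and in the way they were transformed, and these cannot be told apart.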

How the data were processed

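The authors filtered out adaptor tags, low quality tags and tags seen once, and deposited for each remaining tag its count (copy number) and its TPM, the count scaled to 1000000 clean tags of the library. Here each tag was matched to all CATG+17 tags of the GENCODE M21 transcripts of GRCm38 on both strands, with at most 1 mismatch, exact matches first. Sense counts of tags that match 1 gene only were summed per gene. Distinct tags numbered 121656 for GC-1spg and 118173 for GC-2spd. Groups follow the cell line given in the labels.

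The Audic-Claverie test was run on the counts of the 14450 genes with a tag. A gene at 0 was set to 0.01 TPM for the threshold on the ratio. edgeR's quasi-likelihood test needs replicates and could not be fitted, so its exact test was run with an assumed biological coefficient of variation (BCV) of 0.2 or 0.4. Ratio intervals are conditional binomial (Clopper-Pearson). Checked on simulated counts of 13599 genes for this pair of libraries, the test recovered 81.5% of 200 genes changed 4-fold, with 0 false calls. The simulated counts held Poisson counting error only, with no variation between cultures. They therefore cannot show how many false calls such variation would give. Programs were Python 3.11.15 (scipy 1.17.1, pandas 2.3.3, numpy 2.4.6, matplotlib 3.10.9) and R 4.3.3 (edgeR 4.0.16).

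The members and lists were chosen with earlier results of these data known. Of the 39 genes of the clusters 1, and of the list of regulators some, are not reported here. Every member is named, the most abundant tag is printed for members with at least 20 tags, and from the other lists up to 6 called genes with the most tags are named. Other genes of those lists, among them Tbx15, Dlx2, Msx1, Msx2 and Foxd1, the markers named and the second and antisense tags were chosen after their values were seen. The alternatives were exact matches only, sense matches preferred, the 3′-most site only, no pseudogenes, other scalings, filters and tests.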

Additional observations from a re-analysis of the deposited data

Results flagged for a closer look

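These values come from tags outside the sense counts that the report compares. They are signals in a library above the limit that a count of 0 allows, for tags antisense to a Hox gene or shared with another gene.

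Antisense copies of Hoxa9 were 13 in GC-1spg and 13 in GC-2spd, and those of Hoxb4 were 10 and 11. Hoxa10 had 63 and 55, Hoxc8 had 5 and 22, Hoxc10 had 67 and 6, and Hoxd9 had 6 and 41. Hoxc9 had 100 and 60. Nearly all of the Hoxc9 copies came from tags that end in a run of A, whose place in the genome is uncertain, and the tag with the most copies, 56 and 33, is shown to make that visible.
Hoxc9 antisense (chr15:102981257-102981277, minus strand, 5′ UTR): CATGaggattaaaaaaaaaaa

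A tag at the 3′ end of Hoxa4 that also lies antisense in Gm29430 counted 30 for GC-1spg and 53 for GC-2spd, and Hoxa4 had no unshared tag listed. Hoxa7 shares 2 such tags with the antisense gene Hoxaas3, one with 23 and 57 copies and one with 12 and 8. With sense matches preferred, Hoxa7 had 59 and 94 copies, a log2 ratio of 0.77 (0.29 to 1.27). Hoxb2 shares a tag with Hoxb3os that had 16 and 16 copies, and Hoxb3 shares another with it that had 15 and 9. These shared tags are printed since Hoxa4, Hoxb2 and Hoxb3 had no unshared sense tag, and since the first of the Hoxa7 tags held more copies than its unshared tags together.
Hoxa4 (chr6:52189844-52189864, minus strand, 3′ UTR): CATGtagtttcctctccttgc
Hoxa7 (chr6:52214573-52214593, minus strand, 3′ UTR): CATGtcccgtcccacccccca
Hoxb2 (chr11:96353143-96353163, plus strand, coding sequence): CATGaaacacaagcggcagac
Hoxb3 (chr11:96347763-96347783, plus strand, 3′ UTR): CATGaactcagctcctaaatg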

How the results depend on the processing

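The counts of called Hox genes, 7 higher and 1 lower, were within 1.5 times of these under exact matching, preferred sense matches, the 3′-most site, both scalings, the 10 tag filter, 0.5 added tags and the binomial test. With edgeR's exact test they were 3 higher (Hoxb9, Hoxc8 and Hoxd10) and 0 lower at a BCV of 0.2, where 6.92% of all genes were called, and 0 higher and 0 lower at a BCV of 0.4, where 1.69% were. The genes changed more than the counts. With the 3′-most site only, 5 were higher, since Hoxb13 and Hoxd11 had no tag at that site, Hoxc11 was not called and Hoxa7 was. With TMM scaling Hoxc11 was not called.

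With the 3′-most site only, the log2 ratio of group 13 was −0.62, that of group 11 was 1.10, of the posterior genes 0.20 and of the Hoxa sum 0.10. There Cbx8 was at 0.69, opposite to the main value, Msx2 was not called, 0 regulators were lower and 0 transcripts between Hox genes were higher. With exact matches only, Cbx7 was at 1.52 and was not called. With sense matches preferred the anterior sum was 0.16, against −0.16. With sense matches preferred or with shared tags added the Hoxa sum was 0.068, and with sense matches preferred group 4 was 0.10. With TMM scaling the sum of all members was 0.24 and the posterior sum 0.23, and 3 regulators were higher and 3 lower. Scaling to sense tags left 3 higher. At a BCV of 0.2, 1 regulator was higher and 0 lower, and 2 positional factors were lower. At a BCV of 0.4, 0 regulators were higher and 0 lower, 1 positional factor was higher and 2 lower, and 0 transcripts between Hox genes were higher. The causes were not tested.

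No paired analysis was possible because each line has 1 library, and leaving out a replicate was not possible for the same reason. Counts of a few copies, as for Hoxa2, Hoxa11, Hoxa13, Hoxd8 and Hoxd13, leave wide intervals.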
